A study of Mus musculus with 5 samples.

Results

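The genes described here are the extracellular ligands, receptors and soluble antagonists of Wnt signalling, that is, every protein-coding row of the expression table whose mouse symbol begins with Wnt, Fzd, Sfrp or Dkk followed by a digit. The rule found 37 genes among the 21835 rows, namely 19 Wnt ligands, 10 Frizzled receptors, 4 secreted Frizzled-related proteins and 4 Dickkopf proteins. The study asked which genes respond when the miR-200 family, known for restraining epithelial-mesenchymal transition, is overexpressed in lung cancer-associated fibroblasts (CAFs). The mRNA of 5 bulk samples of mouse lung CAFs, grown in alpha-MEM with serum, was sequenced. The control group, CAF-vec, held 2 samples labelled WT control, and per the methods these cells carried the vector alone. The other group, CAF-200, held 3 samples labelled miR-200 overexpression, whose cells were infected with a lentivirus that encodes miR-200b, miR-200a and miR-429 as a cluster and then kept under drug selection. The labels name a neomycin vector selected with G418 in CAFs, whereas the cell culture methods name a hygromycin vector put into normal lung fibroblasts. The paper's sequencing methods and its results speak of CAFs. The labels and the methods also name different RNA kits. The methods speak of triplicates, but 2 CAF-vec columns were analysed. Strain and sex of the mice are not given in the sources used here, and the labels call both groups the same cell line. No source says that the samples came from separate cultures or animals, so *p* values measure only the spread between these samples, which may be technical, and any difference of infection or selection between the groups cannot be told apart from the effect of the miRNAs.

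Wnt proteins are lipid-modified secreted ligands that bind a Frizzled receptor together with a co-receptor. With Lrp5 or Lrp6 as the co-receptor, the pair stabilizes β-catenin, which then activates genes with TCF and LEF factors, whereas with Ror or Ryk co-receptors the signal acts on the cytoskeleton and on planar cell polarity. Sfrp proteins carry a Frizzled-like domain that binds Wnts outside the cell, Dickkopf proteins such as Dkk1 and Dkk2 bind Lrp6, and R-spondins raise the number of Frizzleds on the cell surface by way of Lgr receptors and the ligases Rnf43 and Znrf3. Fibroblasts of the lung are both a source and a target of these signals.

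The overexpressed miRNAs are shown because their seeds define the matches searched in the members' transcripts. The mature sequences are those of RefSeq, from the minus strand of chromosome 4 (GRCm38.p6, chr4:156053916-156055706), written 5′ to 3′ with the seed, bases 2 to 8, in capitals. No row of the expression table holds the miRNAs themselves, so their level was not measured here.
mmu-miR-200b-3p: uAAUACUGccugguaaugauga
mmu-miR-429-3p: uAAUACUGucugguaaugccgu
mmu-miR-200a-3p: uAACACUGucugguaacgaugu
miR-200b and miR-429 share 1 seed, and miR-200a has a seed of its own that differs from it. A perfect match to the first seed reads CAGTATT in the sense strand of a transcript's DNA, and a match to the second reads CAGTGTT.

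Values are in CPM, read counts that the authors brought to a common total per sample, and fold-changes are on log2(CPM + 0.5), a scale that understates the change of low genes. A gene was tested when it reached 0.5 CPM in at least 2 samples, and "higher" or "lower" below means an adjusted *p* under 0.05 (limma, Benjamini-Hochberg adjustment over 12175 genes). The spread was wider in CAF-vec, where the log2 difference between both samples had a standard deviation over genes of 0.490, against 0.192 to 0.204 between pairs of CAF-200 samples. Depth is unknown, as every column has the same total, and 7898 and 7413 rows were at 0 in the CAF-vec samples against 6127 in each CAF-200 sample. Whether the columns of the 2 groups were processed alike is not stated, and its part in their unlike spread was not tested. All 10 fibroblast markers examined were above 0 in every sample, although *Fap* stayed at or below 0.391 CPM, and their summed level was 7457 to 14148 CPM for CAF-vec and 6609 to 7302 CPM for CAF-200. Of these markers 9 were tested, 3 were higher, namely *Dcn*, *Lum* and *Thy1* (2.75, 2.82 and 1.46 on the log2 scale), and 0 were lower. Over all genes tested, 11.9% were higher and 18.6% lower. The other 6 did not pass, with *Col1a1* at -0.91, *Col1a2* at -0.75, *Vim* at -0.39, *Pdgfrb* at -0.25, *Pdgfra* at -0.20 and *Col3a1* at 1.02 on the log2 scale. The median of the 9 was -0.20. Of the 6 smooth muscle and pericyte markers 4 were tested and 2 were higher, *Acta2* (2.63 on the log2 scale, limma adjusted *p* = 0.00123) and *Cnn1* (2.79, limma adjusted *p* = 0.000929). All 6 summed to 103 and 135 CPM in CAF-vec against 687 to 738 CPM in CAF-200, while *Myh11* and *Rgs5*, the more specific of them, stayed at or below 0.0905 CPM. The paper instead reports less α-SMA, the protein of *Acta2*, by immunostaining of CAF-200, and lower mRNA of most CAF markers by RT-qPCR. The reason for this difference was not tested. Of 4 mesothelial markers, *Msln* was lower (sums 5.92 and 6.98 CPM in CAF-vec against 1.11 to 1.62 CPM in CAF-200). Of the 7 epithelial markers 3 were at 0 in all samples, of the 4 endothelial markers 1 was, and neither list exceeded 0.521 CPM for any gene, while of the 6 leukocyte markers *Cd68* and *Csf1r* reached up to 5.01 CPM and *Ptprc*, which marks all leukocytes, stayed at or below 0.0404 CPM. The part of these markers in the results below was not tested. The known miR-200 targets *Zeb1* and *Zeb2*, transcription factors of the mesenchymal state, had log2 fold-changes of -0.36 (limma adjusted *p* = 0.0504) and -0.23 (limma adjusted *p* = 0.374), neither past the threshold. *Zeb1* passed without CAF-vec 1 (limma adjusted *p* = 0.00371) and without CAF-vec 2 (0.0326), and *Zeb2* went to 0.0828 on the log2 scale without CAF-vec 1 and to -0.54 without CAF-vec 2 (0.000472).

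In CAF-200, 3 of the 8 tested Frizzled receptors and 3 of the 7 tested Wnt ligands were lower, and the antagonists *Sfrp1*, *Dkk2* and *Dkk3* and the ligand *Wnt11* were higher. The remaining 9 tested genes did not pass the threshold. Of the 37 genes, 19 were tested. Of the genes tested in the whole table, 30.5% were called, 11.9% as higher and 18.6% as lower, whereas here 4 were higher and 6 lower of 19. Of the 4, *Wnt11* was tested only through its CAF-200 values, where it is high, so its place in this count and in the next follows in part from the filter. By the stricter thresholds of the study (fold-change beyond 1 on the log2 scale, adjusted *p* under 0.01, 4.72% of all genes tested), 4 were higher (*Wnt11*, *Sfrp1*, *Dkk3* and *Dkk2*) and 1 was lower (*Fzd1*), against 2.37% and 2.35% of all genes tested. The median log2 fold-change of the 19 was -0.14, beside -0.094 over all genes tested. In bulk samples, fewer cells of a type and less RNA per cell cannot be told apart. Wherever 1 of the CAF-200 samples was left out, 4 genes stayed higher and 3 lower at an adjusted *p* under 0.05, while the share called over all 12175 genes was 7.52% to 10.1%. None of the 19 then passed the stricter thresholds, which 0 or 1 gene of the whole table passed. Without CAF-vec 2, 3 of the 19 passed these as higher and 3 as lower, beside 625 and 955 of all genes tested, and without CAF-vec 1, 4 were higher and 0 lower, beside 347 and 325.

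**Figure D1:**
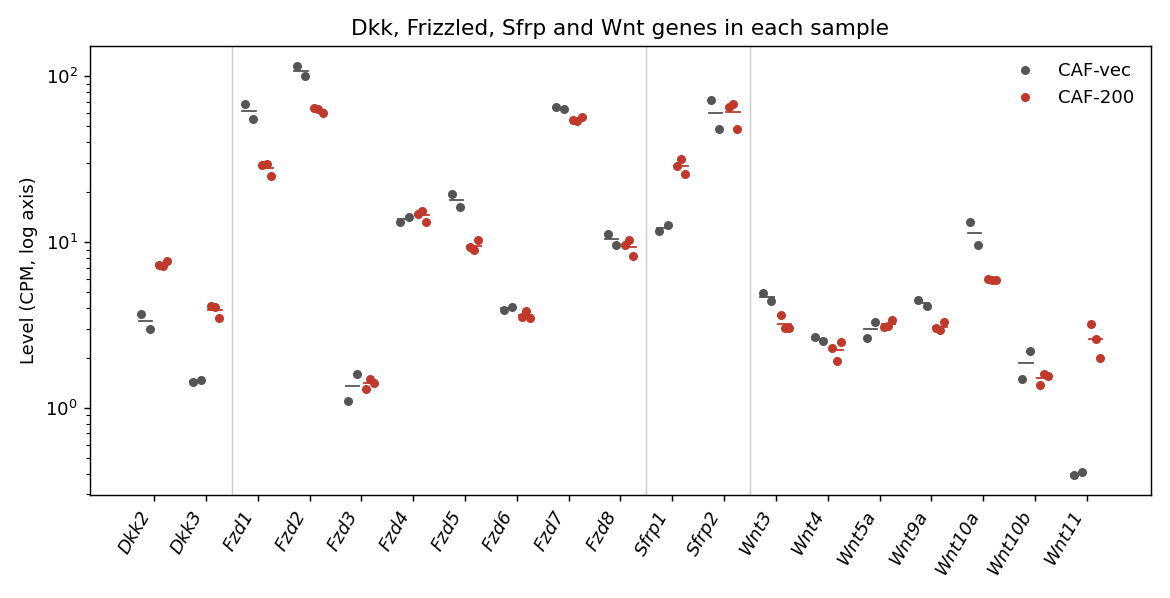
Level of each of the 19 tested genes in CPM (log axis) in every sample, with CAF-vec in grey and CAF-200 in red and a short bar at each group mean. The 3 CAF-200 values lie below both CAF-vec values for Fzd1, Fzd2 and Fzd5 and above them for Sfrp1, Dkk2, Dkk3 and Wnt11, whereas the groups overlap for Sfrp2.

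Among the ligands, *Wnt10a* had the highest level per length of transcript. *Wnt10a* (ENSMUSG00000026167, chr1:74791516-74804179 of GRCm38, plus strand), a ligand known from teeth and skin appendages, stood at 13.2 and 9.57 CPM in CAF-vec and at 6.0, 5.87 and 5.94 CPM in CAF-200. The CAF-200 samples were nearly equal and all lay below both CAF-vec samples. The log2 fold-change was -0.86 (standard error 0.150, limma adjusted *p* = 0.0119), and without 1 of the CAF-200 samples the adjusted *p* was 0.0545 to 0.0621. *Wnt3* (ENSMUSG00000000125, chr11:103774150-103817957, plus strand), needed to form the primitive streak, was at 4.90 and 4.44 CPM in CAF-vec and 3.62, 3.03 and 3.03 CPM in CAF-200. *Wnt9a* (ENSMUSG00000000126, chr11:59306928-59333552, plus strand), a ligand of joint formation, was at 4.49 and 4.10 CPM in CAF-vec and 3.04, 2.95 and 3.28 CPM in CAF-200. For both genes every CAF-200 sample was below every CAF-vec sample, but the step was small. The log2 fold-changes were -0.48 for *Wnt3* (standard error 0.130, limma adjusted *p* = 0.0414) and -0.42 for *Wnt9a* (standard error 0.116, limma adjusted *p* = 0.043). Both calls were lost without CAF-vec 1 (adjusted *p* = 0.0592 and 0.0676), without 1 of the CAF-200 samples (0.0804 to 0.152 for *Wnt3* and 0.115 to 0.16 for *Wnt9a*) and when samples were centred on their medians (0.0674 and 0.0875).

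*Wnt11* was the tested ligand that moved the other way. *Wnt11* (ENSMUSG00000015957, chr7:98835112-98855195, plus strand), a ligand best known for directing convergent extension movements, was at 0.394 and 0.409 CPM in CAF-vec and at 3.19, 2.59 and 2.00 CPM in CAF-200. The CAF-vec samples were both below the level required for testing, so the gene was tested only because of its CAF-200 values, and the groups were far from overlapping. Its log2 fold-change was 1.76 (standard error 0.196, limma adjusted *p* = 0.00417), and it was 1.35 with a pseudocount of 1 CPM and 2.40 with 0.1 CPM. An exon of the antisense gene Gm8398 overlaps *Wnt11*, and as the counting is not stated to have used strand, reads from the 2 genes may not be separated. The same holds for *Wnt5a*, *Fzd5*, *Fzd6* and *Sfrp2*, which antisense genes also overlap.

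The other tested ligands did not pass the threshold. *Wnt5a*, the model ligand of signalling independent of β-catenin, was at 2.63 and 3.31 CPM in CAF-vec and 3.07, 3.13 and 3.39 CPM in CAF-200, with overlapping groups (0.10 on the log2 scale, 95% interval -0.24 to 0.43, limma adjusted *p* = 0.606). *Wnt4*, known from kidney and gonad development, had a log2 fold-change of -0.19 (95% interval -0.54 to 0.17, limma adjusted *p* = 0.349), and *Wnt10b*, known from bone and fat, one of -0.21 (95% interval -0.64 to 0.22, limma adjusted *p* = 0.385). The other 12 Wnt genes were under 0.5 CPM in every sample, and *Wnt3a* and *Wnt9b* were listed at 0 throughout. *Wnt2*, a ligand of lung development, was at 0.161, 0.133 and 0.252 CPM in CAF-200 and listed at 0 in CAF-vec 1 and CAF-vec 2. *Wnt5b*, the close relative of *Wnt5a*, was at 0.167 and 0.0490 CPM in CAF-vec and 0.261, 0.243 and 0.382 CPM in CAF-200, also without overlap between the groups. Both stayed below the level required for testing, and more rows were at 0 in the CAF-vec samples than in CAF-200. Of all genes tested, 61.6% had no overlap between the groups.

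Some mouse Wnt genes lie in tight pairs, and 4 pairs among the 37 genes lay less than 100 kb apart in GRCm38. These were *Wnt6* and *Wnt10a* on chromosome 1 (6.19 kb between them), *Wnt10b* and *Wnt1* on chromosome 15 (11.7 kb), *Wnt3a* and *Wnt9a* on chromosome 11 (16.2 kb) and *Wnt9b* and *Wnt3* on chromosome 11 (24.3 kb). In each pair 1 gene was expressed in every sample and its neighbour was at or near 0. *Wnt10a*, *Wnt10b*, *Wnt9a* and *Wnt3* ranged from 1.38 to 13.2 CPM, whereas *Wnt6* and *Wnt1* did not exceed 0.0295 CPM and *Wnt3a* and *Wnt9b* were at 0. Of the 7 tested ligands 4 were thus expressed partners of a pair, of which 3 were lower in CAF-200 and *Wnt10b* did not pass, which was noticed after their values were seen. Over all genes tested, 18.6% were lower, and the calls of *Wnt3* and *Wnt9a* were lost in several settings, as given above.

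Among the receptors, the closely related *Fzd1*, *Fzd2* and *Fzd7* held most of the Frizzled RNA. In CAF-200, 2 of these 3 were lower, beside 18.6% of all genes tested. *Fzd1* (ENSMUSG00000044674, chr5:4753839-4758035, minus strand) stood at 68.5 and 55.5 CPM in CAF-vec and at 29.4, 29.5 and 24.9 CPM in CAF-200. Its CAF-200 values were well below both CAF-vec values, with a log2 fold-change of -1.13 (standard error 0.134, limma adjusted *p* = 0.00487). *Fzd2* (ENSMUSG00000050288, chr11:102604396-102608058, plus strand), the Frizzled with the highest level per length, stood at 115 and 101 CPM in CAF-vec and at 64.2, 63.7 and 59.8 CPM in CAF-200. The groups again did not overlap, and the log2 fold-change was -0.78 (standard error 0.0958, limma adjusted *p* = 0.00529). *Fzd7* (ENSMUSG00000041075, chr1:59482424-59486955, plus strand) was at 65.6 and 63.6 CPM in CAF-vec and 54.5, 53.9 and 57.1 CPM in CAF-200. Its CAF-200 values were lower by a small and even step, which did not pass (-0.23 on the log2 scale, 95% interval -0.43 to -0.03, limma adjusted *p* = 0.0826), although it did without CAF-vec 1 (adjusted *p* = 0.0451) and without CAF-vec 2 (adjusted *p* = 0.0161).

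*Fzd5* and *Fzd8* form another related pair, and only the first was called. *Fzd5* (ENSMUSG00000045005, chr1:64730558-64737751, minus strand) was at 19.6 and 16.3 CPM in CAF-vec and at 9.34, 8.95 and 10.3 CPM in CAF-200. Every CAF-200 value lay below the CAF-vec values, and the log2 fold-change was -0.88 (standard error 0.122, limma adjusted *p* = 0.00723). *Fzd8* was at 11.1 and 9.64 CPM in CAF-vec and 9.57, 10.3 and 8.29 CPM in CAF-200, with overlapping groups (-0.14 on the log2 scale, 95% interval -0.47 to 0.19, limma adjusted *p* = 0.447). The difference between the responses of *Fzd5* and *Fzd8* was not tested.

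The remaining Frizzleds showed no call. *Fzd4*, which also serves as the receptor of Norrin in blood vessels, was at 13.1 and 14.3 CPM in CAF-vec and 14.9, 15.5 and 13.2 CPM in CAF-200 (0.08 on the log2 scale, 95% interval -0.19 to 0.35, limma adjusted *p* = 0.602). *Fzd3* and *Fzd6*, the Frizzleds best known for planar polarity and axon guidance, had log2 fold-changes of 0.05 (limma adjusted *p* = 0.826) and -0.12 (limma adjusted *p* = 0.423). *Fzd9* did not exceed 0.480 CPM and *Fzd10* was listed at 0. Over the 8 tested Frizzleds, 6 fold-changes were below 0 and 2 above, and the median was -0.18.

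**Figure D2:**
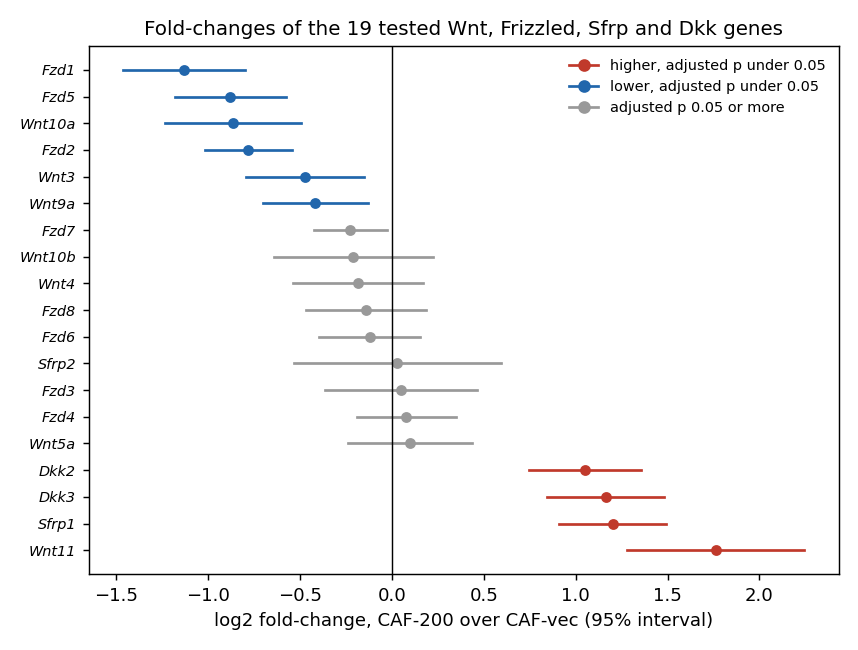
Log2 fold-change of CAF-200 over CAF-vec for the 19 tested genes, with 95% intervals from limma, in red where higher, blue where lower and grey where the adjusted p was 0.05 or more. Wnt11, Sfrp1, Dkk3 and Dkk2 lie between 1.05 and 1.76, Fzd1 lies at -1.13, and the interval of Sfrp2 is the widest of those that span 0.

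The soluble antagonists were higher or did not pass. *Sfrp1* (ENSMUSG00000031548, chr8:23411502-23449632, plus strand), which binds Wnts through its cysteine-rich domain, was at 11.6 and 12.7 CPM in CAF-vec and at 28.8, 31.7 and 25.7 CPM in CAF-200. All CAF-200 values were above both CAF-vec values, with a log2 fold-change of 1.20 (standard error 0.118, limma adjusted *p* = 0.00334). *Sfrp2* (ENSMUSG00000027996, chr3:83766321-83774316, plus strand), its more abundant relative, was at 72.0 and 48.0 CPM in CAF-vec and 65.4, 68.6 and 48.2 CPM in CAF-200. Its spread within each group was nearly as wide as the whole range, and the log2 fold-change was 0.03 (95% interval -0.53 to 0.59, limma adjusted *p* = 0.928). *Sfrp4* did not exceed 0.0309 CPM and *Sfrp5* was listed at 0.

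Of the Dickkopf genes, *Dkk2* and *Dkk3* were expressed and *Dkk1* and *Dkk4* were listed at 0 in all samples. *Dkk2* (ENSMUSG00000028031, chr3:132085292-132180304, plus strand), a ligand of Lrp6, was at 3.67 and 2.98 CPM in CAF-vec and at 7.30, 7.15 and 7.73 CPM in CAF-200. *Dkk3* (ENSMUSG00000030772, chr7:112116017-112159057, minus strand), a divergent family member, was at 1.43 and 1.47 CPM in CAF-vec and at 4.09, 4.07 and 3.47 CPM in CAF-200. For both genes the CAF-200 samples lay well above the CAF-vec samples and close to each other. The log2 fold-changes were 1.05 for *Dkk2* (standard error 0.124, limma adjusted *p* = 0.00485) and 1.16 for *Dkk3* (standard error 0.128, limma adjusted *p* = 0.00413). Over all 19 tested genes, 13 had no overlap between the groups, which is near the share of 61.6% over all genes tested. Among the 13 is *Wnt11*, which was tested only through its CAF-200 values.

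To compare genes with each other, levels were divided by the exon length of each gene, and each gene was taken as a share of its family's sum. The summed level of the Frizzleds was 69.9 and 62.1 CPM per kb in CAF-vec and 42.7, 42.6 and 40.7 CPM per kb in CAF-200 (66.0 ± 5.51, SD, n = 2, and 42.0 ± 1.09, SD, n = 3). Within this smaller sum the shares of the receptors shifted. *Fzd2* came first in every sample, with 44.9% and 44.5% in CAF-vec and 40.1% to 41.1% in CAF-200. *Fzd1* had 23.3% and 21.3% in CAF-vec and 14.6% to 16.5% in CAF-200, whereas *Fzd7* had 20.7% and 22.6% in CAF-vec and 27.9% to 30.9% in CAF-200. The order of *Fzd1* and *Fzd7* differed between both CAF-vec samples, and in CAF-200 *Fzd7* was above *Fzd1* in all 3 samples.

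The ligands as a family summed to 9.90 and 8.43 CPM per kb in CAF-vec and to 6.87, 6.43 and 6.66 CPM per kb in CAF-200. *Wnt10a* made up 53.9% and 46.0% of this sum in CAF-vec and 35.4% to 37.0% in CAF-200. *Wnt11* went from 0.962% and 1.17% in CAF-vec to between 7.27% and 11.2% in CAF-200, and *Wnt3* (14.8% to 17.1%) and *Wnt9a* (13.3% to 14.8%) came next to *Wnt10a* in every sample. The Sfrp sum did not separate the groups, with 36.1 and 25.2 CPM per kb in CAF-vec and 37.0, 39.1 and 28.3 CPM per kb in CAF-200. Within it *Sfrp1* held 7.38% and 11.6% in CAF-vec and 17.8% to 20.8% in CAF-200. The Dickkopf sum was 1.33 ± 0.125 CPM per kb (SD, n = 2) in CAF-vec and 3.15 ± 0.0360 CPM per kb (SD, n = 3) in CAF-200, and *Dkk2* was the larger part of it in each sample. These sums and shares are descriptions and were not tested.

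**Figure D3:**
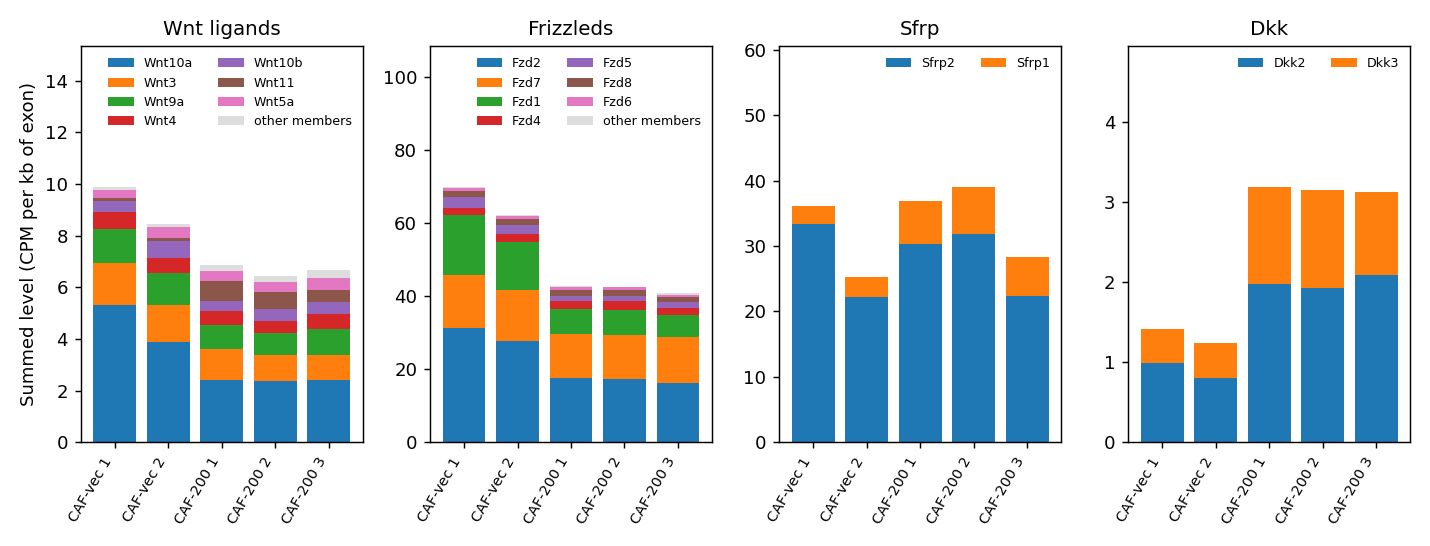
Summed level of each family in CPM per kb of exon length in every sample (bars from 0, one scale per panel), split by gene. The Frizzled bars are 62.1 to 69.9 in CAF-vec and 40.7 to 42.7 in CAF-200, the Dickkopf bars are taller in CAF-200, and the Sfrp bars overlap between the groups.

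The annotated 3′-UTRs of the members were searched for the 7-base matches of the miR-200 seeds on the transcript strand (longest 3′-UTR of each gene, GENCODE M21). Of the 19 tested genes, 4 held a match to either seed, that is 21.1%, beside 30.3% of the 12060 tested genes with an annotated 3′-UTR, and their median 3′-UTR was longer (2184 against 1174 bases). Of the 6 lower genes 0 held a match, of the 4 higher genes 1 did, and of the 9 that did not pass 3 did. The site in *Dkk2* (chr3:132178659-132178665, plus strand) and those in *Wnt5a* (chr14:28526429-28526435 and chr14:28527313-28527319, plus strand) are shown with the match in capitals, since the first lies in a higher gene and the others include both seeds.
Dkk2, match to miR-200b and miR-429: aaaggcagtCAGTATTttccaaatca
Wnt5a, match to miR-200b and miR-429: tatattgacCAGTATTctttattgct
Wnt5a, match to miR-200a: aaggttgaaCAGTGTTttcaaagaac
Beside these, *Fzd3* held 4 matches in a 3′-UTR of 10270 bases, 1 to the shared seed and 3 to that of miR-200a, and *Fzd8* held 1 to that of miR-200a. Among the 18 genes that were not tested, *Sfrp4* and *Wnt1* held a match. A match is a description of letters and does not show binding, and its absence covers only the annotated 3′-UTRs searched and these 7 letters.

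The rest of the pathway was read from lists by role, 80 genes of which 57 were tested. Of these 4 were higher, 12 were lower and 41 did not pass, and the median was -0.19 on the log2 scale (30.5% called and a median of -0.094 over all genes tested). The secreted gene of these lists that was called was *Rspo2*, an R-spondin that raises Frizzled at the surface and the only R-spondin to be tested. It was at 87.1 and 91.5 CPM in CAF-vec and at 12.9, 14.4 and 11.9 CPM in CAF-200, so that the groups were far apart (-2.73 on the log2 scale, standard error 0.107, limma adjusted *p* = 0.000837). *Apcdd1*, a membrane-bound inhibitor, had a log2 fold-change of -0.03 and did not pass, and 11 of the 13 other secreted modulators were below the level required for testing.

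Of 13 other receptors and regulators at the surface, 10 were tested, with 2 higher, 3 lower and a median log2 fold-change of 0.05, beside 11.9% higher and 18.6% lower over all genes tested. These counts include *Lgr6* and *Rnf43*, each of which reached 0.5 CPM in 2 samples only through the group where it is high. *Lgr6*, a receptor of R-spondins, was at 0.153 and 0.319 CPM in CAF-vec and at 6.20, 4.56 and 8.21 CPM in CAF-200 (3.19 on the log2 scale, standard error 0.255, limma adjusted *p* = 0.00254). Its CAF-vec values were below the level required for testing, as for *Wnt11*, and its change was 2.54 with a pseudocount of 1 CPM and 4.26 with 0.1 CPM. Its relative *Lgr4* was higher by 0.61 on the log2 scale (limma adjusted *p* = 0.00953), and *Lgr5* did not exceed 0.271 CPM. The co-receptor *Lrp6* was at 85.4 and 72.6 CPM in CAF-vec and at 60.1, 55.5 and 55.1 CPM in CAF-200, without overlap (-0.47 on the log2 scale, limma adjusted *p* = 0.0243). *Kremen1*, a receptor of Dickkopf proteins, and *Rnf43*, the ligase that removes Frizzleds from the surface, were lower, with log2 fold-changes of -0.67 (limma adjusted *p* = 0.0106) and -1.26 (limma adjusted *p* = 0.0255). *Rnf43* was at 2.14 and 1.13 CPM in CAF-vec and at 0.272, 0.629 and 0.254 CPM in CAF-200, and with a pseudocount of 0.1 CPM its change was -1.86. *Lgr4*, *Lrp6*, *Kremen1* and *Rnf43* all lost the call when any 1 CAF-200 sample was left out (adjusted *p* between 0.0502 and 0.113). *Ror2*, the co-receptor of *Wnt5a*, had a log2 fold-change of 0.31 (limma adjusted *p* = 0.116) and passed without CAF-vec 1 (adjusted *p* = 0.0163) and with samples centred on their medians (0.0473). Of the genes for ligand release and removal, 4 were tested and 0 were called, and *Wls*, the carrier of Wnts to the surface, had a log2 fold-change of 0.08 (95% interval -0.15 to 0.30, limma adjusted *p* = 0.537).

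**Figure D4:**
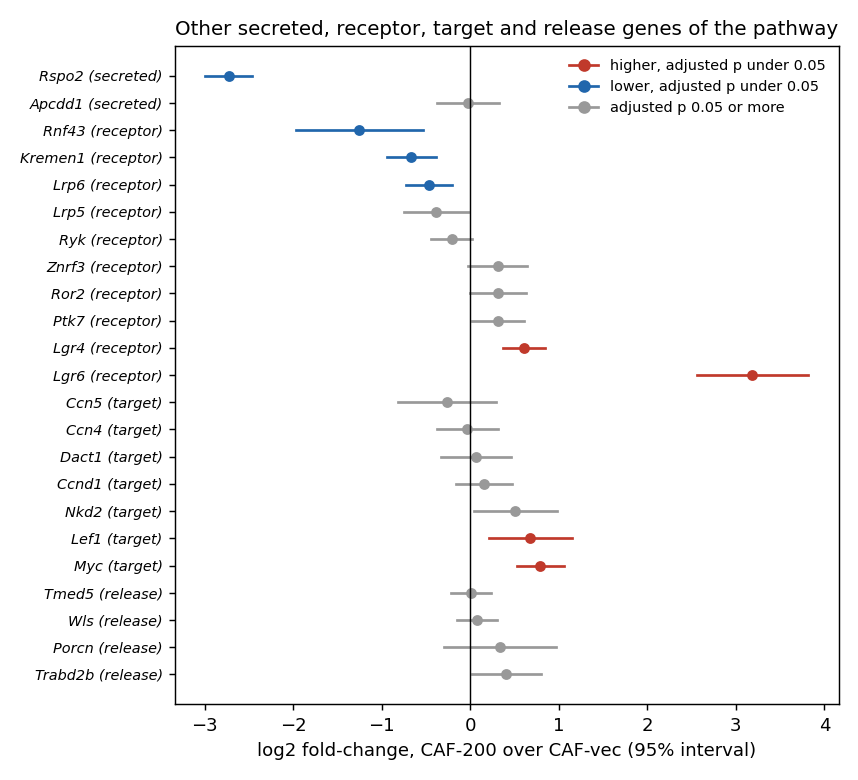
Log2 fold-change of CAF-200 over CAF-vec with 95% intervals from limma for the tested secreted modulators, surface receptors, target genes and release genes, in red where higher, blue where lower and grey where the adjusted p was 0.05 or more. Rspo2 at -2.73 and Lgr6 at 3.19 lie farthest from 0, and none of the 4 release genes was called.

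Of 12 genes that β-catenin is known to activate, 7 were tested, 2 were higher and 0 were lower, with a median log2 fold-change of 0.15, beside 30.5% called and 11.9% higher over all genes tested. *Axin2*, the most general of these targets, was at 0.00663 and 0.280 CPM in CAF-vec and at 0.131, 0.212 and 0.102 CPM in CAF-200, too low to be tested. *Lef1*, a target and itself a partner of β-catenin, was at 1.95 and 2.52 CPM in CAF-vec and 3.80, 3.18 and 4.69 CPM in CAF-200 (0.68 on the log2 scale, limma adjusted *p* = 0.0443). Its call was lost without CAF-vec 1 (adjusted *p* = 0.0638) and without 1 of the CAF-200 samples (0.0707 to 0.134). *Myc* was higher by 0.79 on the log2 scale (limma adjusted *p* = 0.00691), whereas *Ccnd1* had a log2 fold-change of 0.15 (limma adjusted *p* = 0.389). The RNA of β-catenin itself, *Ctnnb1*, was at 382 and 371 CPM in CAF-vec and at 341, 331 and 354 CPM in CAF-200 (-0.14 on the log2 scale, 95% interval -0.37 to 0.09, limma adjusted *p* = 0.281).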

How the data were processed

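RNA of 2 CAF-vec and 3 CAF-200 samples was sequenced from stranded mRNA libraries. The authors deposited 1 table of CPM for 21835 genes, named for TMM (trimmed mean of M values), and the submitters' processing notes name FastQC, cutadapt, Trimmomatic, STAR, RSEM, edgeR and the builds GRCm38 and mm10. Versions, the annotation and the use of strand in counting are not given in the sources used here. The deposited CPM are not whole counts, and whole reads were not recovered from them (46.0% to 95.8% of low values lay within 0.1 of a whole multiple of the commonest step), so depth is unknown and no count test was run. All 5 sample columns were used.

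Genes were named by Ensembl identifier from GENCODE M21 (GRCm38, the same build), which names 21795 of the rows. The test was limma 3.58.1 (lmFit, eBayes with trend, R 4.3.3) on log2(CPM + 0.5) for the 12175 genes reaching 0.5 CPM in 2 or more samples, with Benjamini-Hochberg adjustment. The study used edgeR, a count test for which CPM are not suited. Lengths are those of all annotated exons of a gene. The fit was first tested on simulated data.

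The members and lists were chosen with earlier results of these data known. Named are all members that were called, the most abundant of each family, those of 5 CPM or more, pathway genes past the study's thresholds, and *Axin2*, *Lef1*, *Ctnnb1*, *Lrp6*, *Ror2*, *Wls*, *Zeb1* and *Zeb2*, and other genes were named after their values were seen. Alternatives were pseudocounts of 1 and 0.1 CPM, no filter, a filter of 1 CPM in every sample, quantiles made equal, centring on sample medians, no variance trend, each sample left out and the replicate number as a block. Figures used Python 3.11.15 with pandas 2.3.3, numpy 2.4.6 and matplotlib 3.10.9.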

Additional observations from a re-analysis of the deposited data

How the results depend on the processing

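*Fzd1*, *Fzd2*, *Fzd5*, *Sfrp1*, *Dkk2* and *Dkk3* kept their direction and an adjusted *p* under 0.05 in all 13 alternatives, and *Wnt11*, whose CAF-vec values were under the 0.5 CPM of the filter, did in the 12 in which it was tested, all but the filter of 1 CPM in every sample. Over the samples left out, 4 to 4 of the 19 genes were higher and 3 to 7 lower at an adjusted *p* under 0.05, while 7.52% to 64.6% of all genes tested were called (30.5% with all samples), and 0 to 4 were higher and 0 to 3 lower by the study's thresholds. Of the 57 other pathway genes 2 to 11 were higher and 6 to 21 lower in the same settings. With 1 CPM as the pseudocount, 2 members were higher by the study's thresholds, beside 242 of all 12175 genes. Without a filter *Wnt2* was also called while *Wnt3* and *Wnt9a* were not (adjusted *p* = 0.0673 each), so that 5 members were higher and 4 lower. In that setting 20.9% of 16044 genes were called. *Wnt2* was at 0 in both CAF-vec samples, so its call rests on its CAF-200 values. Quantile normalization lost the same 2 calls (0.0547 and 0.0828). Fitting the replicate number as a block left 1 member higher and 0 lower by the study's thresholds, and 2 pathway genes higher and 7 lower at an adjusted *p* under 0.05, beside 101 and 70 of all genes by the study's thresholds and 12.2% called, and *Wnt3* and *Wnt9a* lost their calls (adjusted *p* = 0.161 and 0.151). Only numbers 1 and 2 are shared and no label ties them to a batch (correlations of deviations 0.249 and 0.134), so the samples share only a number, and CAF-200 3 does not enter the fold-change of that fit. Log2 fold-changes that changed sign, none of them called, were *Fzd3* (-0.14 without CAF-vec 1, up to 0.25 without CAF-vec 2), *Wnt5a* (-0.045 to 0.24, likewise), *Wnt10b* (-0.43 without CAF-vec 1, 0.0076 without CAF-vec 2) and *Sfrp2* (-0.26 without CAF-vec 2, -0.03 without CAF-200 1, -0.07 without CAF-200 2, up to 0.32 without CAF-vec 1). *Zeb2* went from 0.083 without CAF-vec 1 to -0.54 without CAF-vec 2 (adjusted *p* = 0.000472). The causes were not tested. Leaving out a CAF-vec sample leaves 1, whose spread is then taken to be like that of CAF-200. Centring moved the median of all genes from -0.094 to 0.0027 and reversed no member.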

Other observations

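Inside the cell, all 24 listed genes of the β-catenin branch were expressed enough to be tested, 4 were lower in CAF-200 and 0 were higher, with a median log2 fold-change of -0.22, beside 18.6% lower and 11.9% higher over all genes tested. *Apc2*, a relative of the tumour suppressor Apc in the complex that degrades β-catenin, was at 13.8 and 11.7 CPM in CAF-vec and at 5.76, 5.31 and 4.73 CPM in CAF-200 (-1.20 on the log2 scale, limma adjusted *p* = 0.00413). *Tle2*, a co-repressor of TCF factors, was at 116 and 147 CPM in CAF-vec and at 48.7, 52.4 and 39.7 CPM in CAF-200 (-1.48 on the log2 scale, limma adjusted *p* = 0.00413). The groups did not overlap for either gene, and both have an antisense gene over their exons (2310011J03Rik for *Apc2* and Gm15917 for *Tle2*). *Dvl2*, a scaffold that passes the signal on from Frizzled, and *Bcl9l*, a co-activator of β-catenin, had log2 fold-changes of -0.53 (limma adjusted *p* = 0.0112) and -0.68 (limma adjusted *p* = 0.0151), and both lost the call without 1 of the CAF-200 samples (adjusted *p* between 0.0506 and 0.07).

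Of the 13 genes of the planar polarity branch, 10 were tested, 4 were lower and 0 were higher, with a median log2 fold-change of -0.40, beside the same 18.6% and 11.9% over all genes tested. *Daam2*, a formin that links Dishevelled to actin, was at 31.3 and 26.6 CPM in CAF-vec and at 6.34, 6.34 and 4.79 CPM in CAF-200 (-2.23 on the log2 scale, limma adjusted *p* = 0.00194). Its relative *Daam1* was at 43.9 and 42.6 CPM in CAF-vec and at 23.1, 24.9 and 20.9 CPM in CAF-200 (-0.90 on the log2 scale, limma adjusted *p* = 0.00458). *Fuz*, an effector of planar polarity in ciliated cells, was at 23.0 and 17.7 CPM in CAF-vec and at 8.60, 9.74 and 9.09 CPM in CAF-200 (-1.10 on the log2 scale, limma adjusted *p* = 0.00569), with antisense genes over its exons. For all of these the CAF-200 samples lay below both CAF-vec samples. *Prickle1*, a core polarity protein, had a log2 fold-change of -0.54 (limma adjusted *p* = 0.04), a call that was lost without 1 of the CAF-200 samples (adjusted *p* 0.0748 to 0.142) and with centring on sample medians (0.0713).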
